A study of Rattus norvegicus with 6 samples.

Results

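The tripartite motif (TRIM) family of ubiquitin ligases was examined in RNA-seq of neonatal rat cardiac fibroblasts (NRCFs). Gene symbols starting with Trim and a number were taken as the family, and a member was kept when at least 3 of the 6 libraries held 10 or more counts. Of 21857 symbols in the count files 54 belonged to the family, and 43 of these were kept. The other 11 had at most 8 counts in any library, and 5 of them (Trim9, Trim42, Trim52, Trim58 and Trim67) had none. Of the 43 kept, 39 reached 10 counts in all 6 libraries. The remaining 4 (Trim10, Trim14, Trim66 and Trim71) did so in some libraries only, so they passed mainly through the group in which they were higher.

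The cells were primary cultures from the hearts of rats, taken within 3 days of birth. The design text names the strain as Sprague-Dawley, whereas the sample labels give "Noway". One group carried the genotype label WT and received the empty plasmid (Vector, 3 libraries), and the other was labelled FTO overexpression and was given a plasmid for FTO, an RNA demethylase of the N6-methyladenosine mark (3 libraries). Both groups had thus been transfected, and nothing in the labels says whether the 3 libraries of a group came from separate cultures, so the p-values measure the spread between libraries, which may be technical.

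Library totals ran from 13178952 to 17857999 counts. Fto, the gene carried by the plasmid, was at 87.4 to 89.6 CPM (each count as a share of its library, after TMM scaling) in the Vector libraries and at 90.8 to 93.2 CPM in the others. Its log2 fold change was 0.06 (SE 0.0468, adjusted p-value 0.239), and every direction given here is that of the label rather than of a measured rise in Fto. Of the 12941 genes tested, 33.2% were called higher and 32.8% lower at an adjusted p-value under 0.05. The 9 fibroblast markers were all detected, with a summed level of 40130 to 40765 CPM in Vector and 19822 to 20812 CPM in the libraries labelled FTO. The list split, since 5 fell, among them the abundant Col1a1 and Col3a1, and 4 rose, with log2 fold changes of 6.90 for Dcn, 3.15 for Lum, 2.49 for Pdgfra and 0.60 for Thy1. Markers of other cell types were present too. The 12 macrophage markers summed to 1805 to 1863 CPM in Vector against 301 to 338 CPM, and the 9 cardiomyocyte markers to 1610 to 1649 CPM against 2597 to 2717 CPM, with none of either list at 0 in every library. Mural markers summed to 1190 to 1240 CPM against 819 to 914 CPM. On the log2 scale 3 were lower (Notch3, -3.91, Cspg4, -1.41, and Pdgfrb, -0.49) and 2 higher (Kcnj8, 4.89, and Abcc9, 2.45). Endothelial markers summed to 24.1 to 24.6 CPM against 52.2 to 55.3 CPM. The listed markers Rgs5 (mural), Vwf and Emcn (both endothelial) did not pass the count filter and are not in these sums. In bulk RNA, a change in the number of cells of a type and a change in the RNA per cell cannot be told apart.

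TRIM proteins share an N-terminal module of a RING domain, B-box zinc fingers and a coiled coil. The RING domain recruits an E2 conjugating enzyme and passes ubiquitin to a substrate, and the C-terminal domain, often PRY-SPRY, chooses the substrate. Some members are induced by interferon and act in antiviral signalling, where they ubiquitylate RNA sensors, their adaptors or viral capsids. Others act in striated muscle, at microtubules or as transcriptional corepressors. Interferon raises its targets through factors that bind the interferon-stimulated response element (ISRE) or the GAS element.

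Promoters of 4 interferon-inducible members are shown first, 3 of them because they hold the ISRE letters. RefSeq promoter windows (build GRCr8, 250 bases before to 50 after the start site) were matched to 35 of the 43 members by symbol. The ISRE core was searched as GAAANNGAAA and the GAS element as TTCNNNGAA, on both strands. The ISRE core was found in 3 of the 6 interferon-inducible members with a window and in 0 of the 29 others, against 3.92% of 33469 windows. Each of the 3 windows held 2 overlapping matches, written below in capitals. They began 18 and 12 bases before the start site in Trim21 (chr1:166399322-166399621, minus strand), 198 and 192 bases before it in Trim26 (chr20:1736262-1736561, minus strand), and 10 and 16 bases after it in Trim34 (chr1:168118793-168119092, plus strand). The Trim25 window (chr10:74309774-74310073, plus strand) held no match and is shown for comparison.
Trim21: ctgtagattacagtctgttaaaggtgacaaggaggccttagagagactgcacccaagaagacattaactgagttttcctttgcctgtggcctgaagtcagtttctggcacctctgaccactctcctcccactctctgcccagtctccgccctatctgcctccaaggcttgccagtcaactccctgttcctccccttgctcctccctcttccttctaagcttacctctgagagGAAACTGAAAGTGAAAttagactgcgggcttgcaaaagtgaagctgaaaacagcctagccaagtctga
Trim34: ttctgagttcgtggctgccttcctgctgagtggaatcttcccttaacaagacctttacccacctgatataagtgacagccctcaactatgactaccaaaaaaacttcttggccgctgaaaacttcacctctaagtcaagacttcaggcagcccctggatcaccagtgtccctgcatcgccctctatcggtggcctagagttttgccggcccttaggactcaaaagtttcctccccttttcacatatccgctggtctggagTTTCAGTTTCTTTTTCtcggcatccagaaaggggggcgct
Trim26: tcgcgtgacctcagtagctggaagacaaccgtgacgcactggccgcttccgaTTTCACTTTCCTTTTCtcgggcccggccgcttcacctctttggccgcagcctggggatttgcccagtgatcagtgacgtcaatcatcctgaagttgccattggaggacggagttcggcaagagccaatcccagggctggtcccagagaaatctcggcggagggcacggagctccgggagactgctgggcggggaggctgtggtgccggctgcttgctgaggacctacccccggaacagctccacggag
Trim25: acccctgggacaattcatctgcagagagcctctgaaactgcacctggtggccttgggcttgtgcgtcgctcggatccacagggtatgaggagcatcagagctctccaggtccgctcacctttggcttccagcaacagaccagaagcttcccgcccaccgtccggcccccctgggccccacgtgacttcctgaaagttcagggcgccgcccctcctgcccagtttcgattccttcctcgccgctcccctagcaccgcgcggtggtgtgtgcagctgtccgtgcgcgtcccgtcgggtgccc

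GAS letters occurred in 1 of the 35 windows, that of Trim23, which held no ISRE match, against 8.87% of all windows. Trim3, Trim14, Trim15, Trim35, Trim39, Trim46, Trim55 and Trim69 had no window in the table. A match describes letters only, and no binding was measured here.

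Across the family, 20 members rose and 10 fell in the libraries labelled FTO at an adjusted p-value under 0.05 of the edgeR quasi-likelihood test, and 13 passed in neither direction. These were 46.5% and 23.3% of the members kept, beside the 33.2% and 32.8% of the genes tested. The median log2 fold change was 0.21 over the members and 0.00 over the genes tested. Among the 39 members with 10 counts in each library, 17 rose and 10 fell. The threshold of the study was a log2 fold change of at least 1 in either direction with an unadjusted p-value under 0.05. By it 12 of the 43 members were higher and 2 lower, beside 10.4% and 9.27% of the genes tested. Of the 39 with 10 counts in each library, 9 were higher and 2 lower by the same threshold. The groups did not overlap in 28 members (65.1%), a share near the 70.3% of the genes tested. The share of all counts that fell on the members was 0.116% to 0.117% in Vector, and libraries labelled FTO gave 0.143% to 0.144%.

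**Figure D1:**
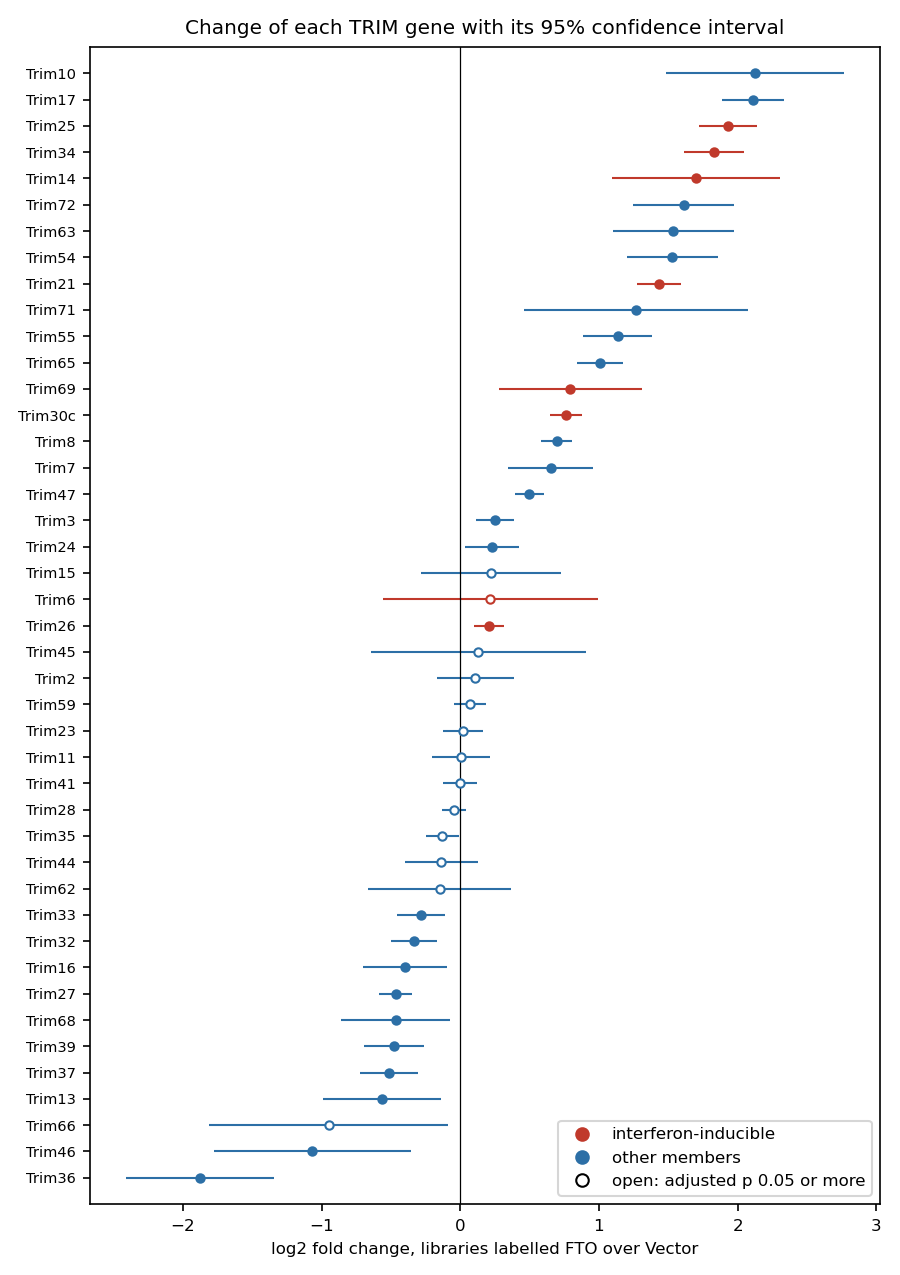
The 43 TRIM genes are ordered by log2 fold change (x axis, FTO label over Vector), with 95% confidence intervals as bars. The values run from -1.88 for Trim36 to 2.12 for Trim10, all 8 interferon-inducible members (red) lie to the right of 0, and open points mark the 13 members that did not pass.

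The interferon-inducible members were then contrasted with the rest. The list held 9 symbols present in the files, of which 8 were kept, and Trim31 was left out with at most 1 count in a library. Trim5, Trim38 and Trim56 were not analysed here, since none of them was among the 54 family symbols in the count files. Of the 8, 7 rose (87.5%), 0 fell and Trim6 did not pass, with a median log2 fold change of 1.11. Of the 35 other members, 13 rose (37.1%), 10 fell (28.6%) and 12 did not pass, with a median of 0.02. The shares of these others were near those of all genes tested, 33.2% higher and 32.8% lower. The difference between the lists was not tested, because the list was chosen with earlier results of these data known. On a narrower list of 5 members, all 5 rose, with a median of 1.70. Without Trim14, which had 10 counts in every library of the group labelled FTO but not of Vector, 6 of 7 rose and the median was 0.79.

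Trim25, the ligase that ubiquitylates the RNA sensor RIG-I and also attaches ISG15, was at 20.6, 21.1 and 20.8 CPM in the Vector libraries and at 80.4, 66.5 and 90.6 CPM in those labelled FTO. The 3 Vector values lay within a narrow band, and the lowest library labelled FTO was far above them. This was a 3.81-fold rise, a log2 fold change of 1.93 (SE 0.0972, adjusted p-value 9.9e-11). Trim34, a close relative of the retroviral restriction factor TRIM5, was at 11.4, 9.53 and 8.31 CPM and rose to 33.2, 36.2 and 34.5 CPM, with no overlap. Its log2 fold change was 1.83 (SE 0.101, adjusted p-value 3.2e-10).

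Trim21, the cytosolic antibody receptor that directs antibody-coated virus to the proteasome, was at 20.8, 20.1 and 19.0 CPM in Vector and at 56.2, 49.5 and 55.7 CPM in the libraries labelled FTO. The groups did not overlap, and the rise was 2.70-fold (log2 fold change 1.43, SE 0.0735, adjusted p-value 1.2e-10). Trim14, a member without a RING domain that serves as a mitochondrial adaptor of RNA sensing, was counted far less deeply, with a mean of 23.7 counts per library. It was at 0.732, 0.872 and 0.623 CPM and then at 2.88, 2.34 and 2.12 CPM, again without overlap. The log2 fold change of 1.70 therefore had a wider error (SE 0.284, adjusted p-value 8.6e-05).

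Trim30c, a rodent member from a cluster of near-identical copies whose reads the counting could have split, was at 50.6, 49.6 and 48.2 CPM and rose to 86.6, 81.6 and 83.3 CPM. All 3 libraries labelled FTO stood above all 3 Vector libraries, by a log2 fold change of 0.76 (SE 0.0534, adjusted p-value 5.7e-09). Trim69 was at 1.54, 2.75 and 1.66 CPM against 3.02, 3.40 and 3.91 CPM, so that Vector replicate 2 came close to the other group. Its log2 fold change was 0.79 (SE 0.240, adjusted p-value 0.0091). Trim26, which acts on the kinase and factor steps of interferon induction, moved little although it was well counted, from 74.4, 71.0 and 73.1 CPM to 85.4, 85.2 and 81.8 CPM. The small rise passed (log2 fold change 0.21, SE 0.0501, adjusted p-value 0.0020), and the groups did not overlap.

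Trim6, a ligase of unanchored ubiquitin chains in interferon signalling, was the interferon-inducible member that did not pass. It was at 0.878, 1.27 and 0.693 CPM in Vector and at 1.47, 1.21 and 0.726 CPM in the libraries labelled FTO, with overlap. At a mean of only 15.2 counts, the 95% interval of its log2 fold change ran from -0.56 to 0.99, which includes a rise as large as that of Trim30c. The 12 macrophage markers moved the other way, with 11 lower (91.7%, beside 32.8% of the genes tested) and Adgre1 higher (2.22). For C1qb and C1qc no library labelled FTO held more than 3 counts. The part of macrophages in the change of the interferon-inducible members was not tested. Among the 7 that passed, the changes ranged from 0.21 to 1.93. The 3 members with an ISRE match included both a large change (Trim34, 1.83) and the smallest that passed (Trim26, 0.21), and Trim25, with the largest change, had no match in its window.

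**Figure D2:**
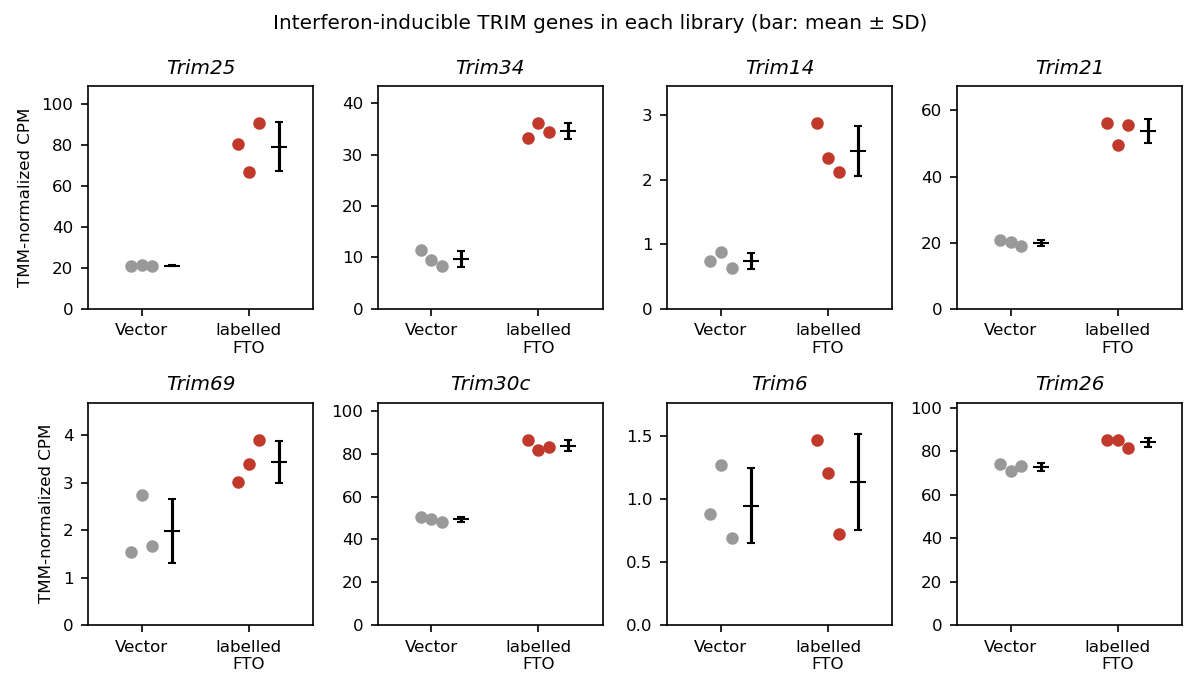
TMM-normalized CPM (y axis, from 0) of the 8 interferon-inducible TRIM genes, with 1 point per library and the mean ± SD as a bar. The groups are apart in 7 of the panels, and in the panel of Trim6 they overlap.

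The genes around these members were examined on lists drawn up by role. Counts on these lists are to be read beside the 33.2% of all genes tested that rose and the 32.8% that fell. Of the factors that carry the interferon signal, Stat2 rose by 2.46 and Irf9 by 1.94 on the log2 scale. All 5 genes of ISG15 conjugation rose, among them Isg15 itself (6.77), the protease Usp18 (6.79), the E1 enzyme Uba7 (4.27), the E2 enzyme Ube2l6 (2.74) and the ligase Herc6 (4.25). Their log2 fold changes stood beside the 1.93 of Trim25, a TRIM ligase for ISG15, and the difference was not tested. Of 12 genes for RNA and DNA sensing, 8 rose and 2 fell. Ddx58, which encodes the Trim25 substrate RIG-I, rose by 2.76 and Ifih1, which encodes the sensor MDA5, by 2.17, while Mavs, the adaptor of both, fell by 0.40 and Irf3 fell by 0.33. Irf7, a factor that interferon itself induces, was at 4.29 to 5.85 CPM in Vector and at 1352 to 1483 CPM in the libraries labelled FTO, a log2 fold change of 8.19.

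Of 8 listed genes of the ubiquitin E2 family, Ube2d3 (0.24) and Ube2n (0.25) rose, Ube2d1 fell by 0.27, and 5 did not pass. TRIM proteins listed under other symbols were compared as well. Pml (TRIM19), the scaffold of nuclear bodies and itself an interferon target, was at 25.3 to 29.5 CPM and rose to 67.4 to 74.5 CPM, a log2 fold change of 1.39. Mid1 (TRIM18) rose by 0.42 and Mid2 (TRIM1), its close relative at microtubules, fell by 1.82 on the log2 scale, from 33.8 to 36.4 CPM down to 9.55 to 10.2 CPM. Rnf207, a cardiac member, rose by 1.04, and Bspry and Cmya5 did not pass.

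**Figure D3:**
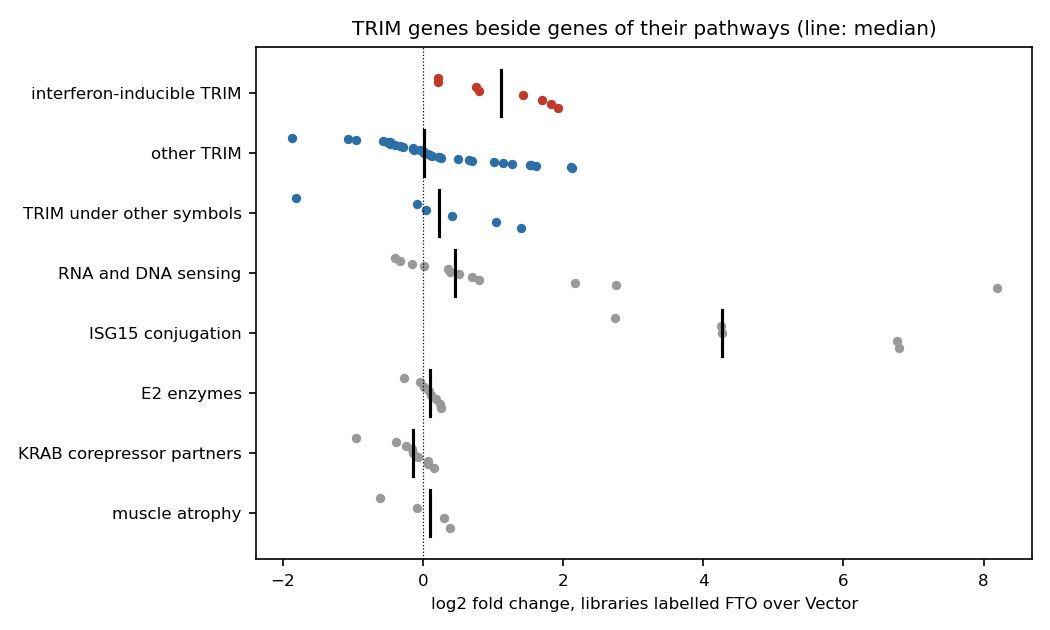
The log2 fold change of each gene (points, x axis) is shown for the TRIM genes and for 6 further lists, with the median of each list as a line. The ISG15 conjugation genes have a median of 4.27 and the interferon-inducible TRIM genes one of 1.11. The 8 listed genes of the ubiquitin E2 family, which do not include Ube2l6, stay between -0.27 and 0.25.

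Outside the interferon-inducible members, all 3 MuRF genes rose, with a median log2 fold change of 1.53, where 33.2% of the genes tested rose. Trim72 was set beside them after its values were seen and rose too, whereas Trim32, another member with a role in muscle, fell by 0.33. Trim63 (MuRF1), Trim55 (MuRF2) and Trim54 (MuRF3) are ligases of the sarcomere, and Trim72 (MG53) takes part in the repair of the muscle cell membrane. Trim63 was at 1.32, 2.15 and 1.80 CPM in Vector and at 4.91, 5.51 and 5.03 CPM in the libraries labelled FTO, a log2 fold change of 1.54 (SE 0.203, adjusted p-value 8.2e-06). Trim55 was at 12.00, 10.9 and 8.73 CPM in Vector and then at 24.3, 24.5 and 20.8 CPM (log2 fold change 1.13, SE 0.115, adjusted p-value 4.6e-07). In neither gene did the groups overlap.

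Trim54 was at 5.19, 5.17 and 5.68 CPM against 12.8, 19.3 and 14.5 CPM (log2 fold change 1.53, SE 0.155, adjusted p-value 4.4e-07). Trim72 was at 5.78, 6.44 and 6.79 CPM against 15.4, 25.5 and 17.8 CPM (log2 fold change 1.61, SE 0.170, adjusted p-value 6.9e-07). Both were highest in replicate 2 of the libraries labelled FTO, and both stood clear of Vector in each library. Of the 9 cardiomyocyte markers 8 rose as well, by 0.92 (Pln) to 1.89 (Tnni3) on the log2 scale, and Tnnt2 fell by 0.25. Among all genes tested 33.2% rose and 32.8% fell. The median log2 fold change over all 9 markers was 1.16. The part of cardiomyocytes in the rise of the MuRF genes and Trim72 was not tested. Among 4 genes of muscle atrophy and its targets, Foxo3 (0.30) and Myh7 (0.39) rose, Foxo1 fell by 0.61, and Fbxo32, the other main atrophy ligase, was at 36.6 to 67.0 CPM in the libraries labelled FTO around the 54.9 to 59.7 CPM of Vector.

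**Figure D4:**
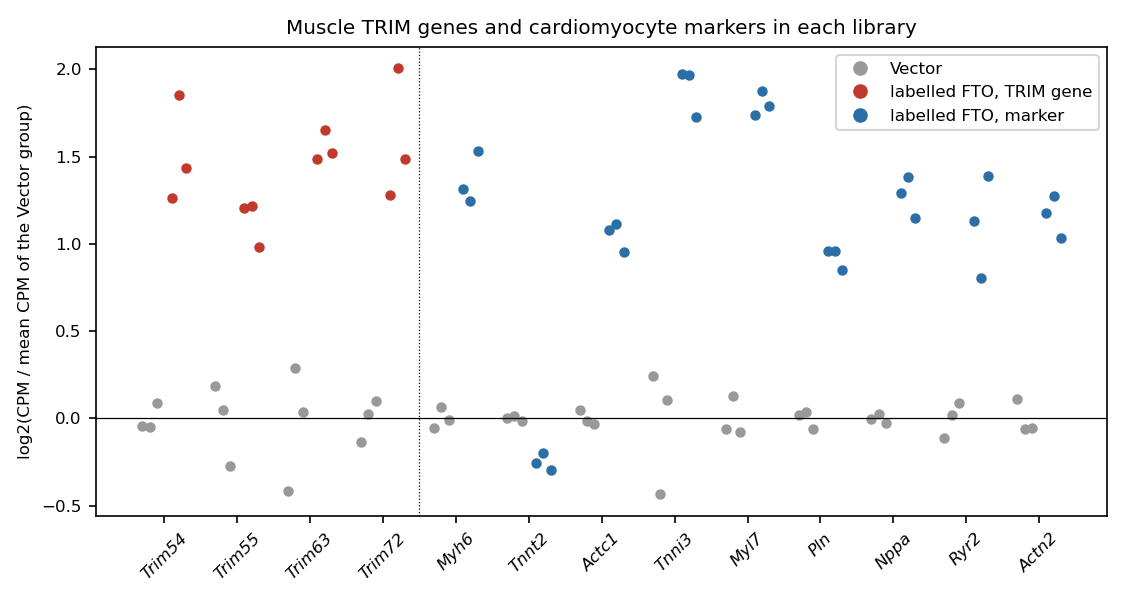
CPM of each library relative to the mean of the Vector group, on a log2 scale (y axis), for the 3 MuRF genes and Trim72 on the left and the 9 cardiomyocyte markers on the right. Each TRIM gene and each marker other than Tnnt2 has its 3 libraries labelled FTO above its 3 Vector libraries.

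Further members rose that belong to neither group. Trim17, a ligase studied mainly in neuronal cell death, was at 6.95, 6.58 and 6.23 CPM and rose to 28.1, 31.5 and 26.0 CPM. The 4.32-fold difference was the largest among members with a mean of at least 100 counts (log2 fold change 2.11, SE 0.106, adjusted p-value 9.4e-11). Trim65, which ubiquitylates the sensor MDA5, rose from 19.7, 18.3 and 17.7 CPM to 35.7, 40.2 and 36.4 CPM (log2 fold change 1.01, SE 0.0784, adjusted p-value 1.9e-08). Both genes had libraries that did not overlap between groups.

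Trim8, a regulator of NF-κB and cytokine signalling, was at 60.2, 61.6 and 62.1 CPM and rose to 95.3, 103 and 99.2 CPM (log2 fold change 0.69, SE 0.0515, adjusted p-value 1.1e-08). Trim47 rose from 65.6, 65.2 and 65.9 CPM to 93.1, 93.9 and 90.8 CPM (log2 fold change 0.50, SE 0.0486, adjusted p-value 2.9e-07). The replicates of both genes were tight and the groups well apart. Less was counted of Trim7 (log2 fold change 0.65) and Trim10, a member linked to red cell differentiation. Trim10 had the largest fitted change of the family (2.12, SE 0.301), but from 0.951, 0.738 and 0.415 CPM to 2.46, 3.25 and 3.46 CPM, at a mean depth of 28.3 counts.

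The family's decreases were smaller in well-counted members. Trim37, a ligase with a MATH domain that is found at peroxisomes and centrosomes, was at 27.2, 27.0 and 26.5 CPM and fell to 16.1, 18.6 and 21.5 CPM (log2 fold change -0.52, SE 0.0966, adjusted p-value 0.00025). Trim27, which acts with the retromer on endosomes, fell from 68.2, 63.3 and 66.5 CPM to 48.7, 48.1 and 46.6 CPM (log2 fold change -0.47, SE 0.0562, adjusted p-value 3.1e-06). Trim39, a regulator of the anaphase-promoting complex, fell from 19.8, 22.0 and 19.0 CPM to 15.0, 12.8 and 15.7 CPM (log2 fold change -0.48, SE 0.100). None of the 3 overlapped between groups, and the replicates of Trim37 labelled FTO were the most spread.

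The steepest declines were in thinly counted members that bind microtubules. Trim36 fell 3.67-fold, from 3.44, 3.09 and 2.77 CPM to 0.912, 0.755 and 0.838 CPM, with a mean of 28.5 counts per library. Its log2 fold change was -1.88 (SE 0.251, adjusted p-value 9.1e-06) and the groups lay apart. Trim46, which organizes microtubules in the axon, was at 2.85, 2.62 and 1.25 CPM against 1.26, 1.13 and 0.838 CPM. Vector replicate 3 lay within the range of the other group, and its log2 fold change of -1.07 (SE 0.332) had an adjusted p-value of 0.011, which became 0.0570 without Vector replicate 1 and 0.0502 without Vector replicate 2. Both genes, with Trim54, Trim55 and Trim63, carry the microtubule-binding COS box. Of the 5 kept members of that class 3 rose (60%) and 2 fell (40%), beside 33.2% and 32.8% of the genes tested.

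Of the 4 transcriptional corepressors of the TIF1 subfamily, 1 rose (25%), 1 fell (25%) and 2 did not pass. Among all genes tested 33.2% rose and 32.8% fell. Trim28 (KAP1), which silences retroelements through KRAB zinc finger proteins, was at 217, 221 and 213.8 CPM in Vector. The libraries labelled FTO were at 213.5, 212 and 207 CPM, so the groups narrowly did not overlap. The 95% interval of the Trim28 log2 fold change of -0.04 ran from -0.13 to 0.04 (adjusted p-value 0.364), at a mean depth of 3152 counts. A change as large as that of Trim33 lay outside it. Trim33, a partner of SMAD4 in TGF-β signalling, fell from 31.2, 31.3 and 32.8 CPM to 24.3, 24.5 and 29.2 CPM (log2 fold change -0.28, SE 0.0815, adjusted p-value 0.0068). Trim24 was at 18.2, 16.0 and 19.6 CPM against 20.6, 20.7 and 21.5 CPM (log2 fold change 0.23, adjusted p-value 0.0393), a call that was lost without Vector replicate 1 (0.0699), Vector replicate 2 (0.209), FTO replicate 1 (0.0771) or FTO replicate 3 (0.0862). Trim66 had 9 counts per library on average and did not pass (log2 fold change -0.95, 95% interval -1.81 to -0.09, adjusted p-value 0.0506), although its groups did not overlap. Without FTO replicate 3 its adjusted p-value was 0.0367. Of 9 partners of Trim28, Cbx1 (fell by 0.96), Hdac2 (fell by 0.38) and Chd3 (fell by 0.16) decreased, Hdac1 (0.16) increased and 5 did not pass, Setdb1 among them. The share of partners that fell, 33.3%, was near the 32.8% of all genes tested, and the share that rose was 11.1%.

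The NHL subfamily moved in both directions. Trim32, a ligase mutated in a limb-girdle muscular dystrophy, fell from 40.7, 35.4 and 36.3 CPM to 31.9, 28.2 and 29.0 CPM (log2 fold change -0.33, SE 0.0763, adjusted p-value 0.0013). Trim3 rose from 44.6, 44.3 and 50.2 CPM to 57.0, 52.8 and 55.7 CPM (log2 fold change 0.25, SE 0.0649, adjusted p-value 0.0032). Neither gene overlapped between groups. Trim71 (LIN41), a target of let-7 in stem cells, had 17.3 counts per library. Its values of 0.951, 0.537 and 0.554 CPM against 1.75, 0.906 and 2.12 CPM overlapped, and its log2 fold change of 1.27 (adjusted p-value 0.0084) did not pass without FTO replicate 3 (0.0517). Trim2 was at 6.72 to 8.39 CPM against 7.76 to 8.84 CPM and did not pass.

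Of the members anchored in membranes, Trim13, a ligase of the endoplasmic reticulum, fell from 3.88, 3.22 and 3.19 CPM to 2.03, 2.42 and 2.46 CPM (log2 fold change -0.56, SE 0.199, adjusted p-value 0.021). That call was lost without Vector replicate 1 (0.0859) and without FTO replicate 1 (0.0713), and with DESeq2 (0.0727). Trim59 was at 64.5 to 66.3 CPM in Vector and at 66.0 to 71.8 CPM in the libraries labelled FTO, and its log2 fold change of 0.07 lay in an interval from -0.05 to 0.18. Trim16, which marks damaged lysosomes, fell by 0.40 and Trim68 fell by 0.47 on the log2 scale, with groups that overlapped in both. Their adjusted p-values were 0.021 and 0.037. Without a single library they reached 0.119 for Trim16 (without Vector replicate 3, and it was also lost without FTO replicate 1 or 3) and 0.136 for Trim68 (without Vector replicate 3, and it was also lost without Vector replicate 2 or FTO replicate 2 or 3).

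The 13 members that did not pass had log2 fold changes from -0.95 (Trim66) to 0.22 (Trim15). Besides those described, they were Trim11, Trim23, Trim35, Trim41, Trim44, Trim45 and Trim62. Some were well counted. Trim41 was at 53.7 to 56.4 CPM against 52.6 to 57.0 CPM, with an interval of its log2 fold change from -0.12 to 0.12, and Trim23, the member with an ARF domain, was at 31.7 to 35.1 CPM against 33.5 to 34.4 CPM, with an interval from -0.12 to 0.16. Trim35 was near the threshold, at 110 to 115 CPM against 95.5 to 111 CPM (log2 fold change -0.13, adjusted p-value 0.0527), and it passed without FTO replicate 1 (0.0146). Trim44 passed in the same way without FTO replicate 3 (0.0459). Trim15, Trim45 and Trim62 had only 28.7 to 41.0 counts per library, and their intervals were wide, from -0.64 to 0.90 for Trim45.

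Several TRIM genes lie next to each other in the genome, as the order of genes in RefSeq (assembly GRCr8) shows, and their values are set side by side. All 43 members were found in that table, and 7 pairs had at most 1 protein-coding gene between them. Trim17 (2.11) and Trim11 (0.01) were adjacent, as were Trim10 (2.12) and Trim15 (0.22), and in both pairs the first rose while the second did not pass. The same held for Trim34 (1.83) and Trim6 (0.22) and for Trim7 (0.65) and Trim41 (-0.00). Trim65 (1.01) and Trim47 (0.50) both rose, and so did Trim34 and Trim30c (0.76), which had 1 gene between them. Trim15 and Trim26 (0.21) had nearly the same estimate, but only Trim26, with 1157 counts per library against 41.0, passed. The differences within pairs were not tested. Where neighbours overlap or share sequence, the counting could have placed reads of one on the other.

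**Figure D5:**
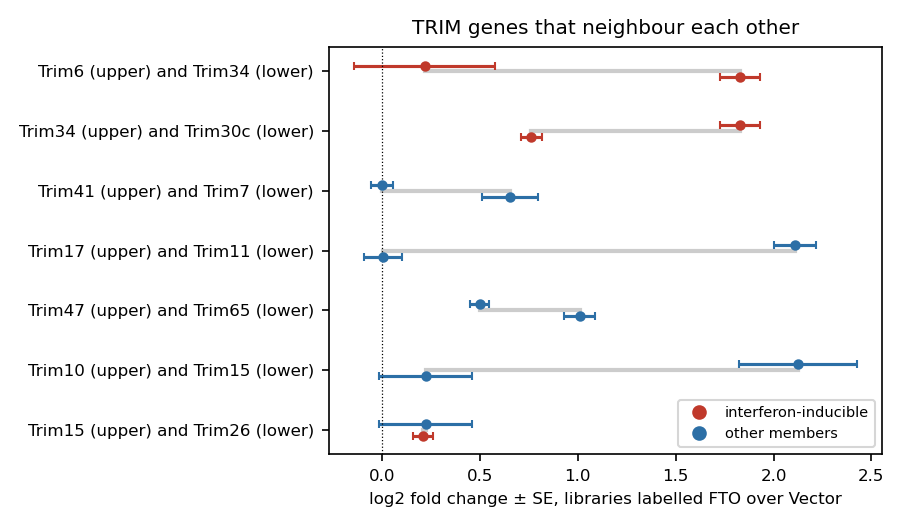
The log2 fold change with its SE (x axis) is drawn for both genes of the 7 neighbouring pairs, joined by a grey line. The widest gap is that between Trim17 (2.11) and Trim11 (0.01).

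The list of 21 kept members of the SPRY class was not a full grouping by C-terminal domain. Trim14, which rose, and Trim16, Trim36 and Trim46, which fell, were listed under other classes whatever their C-terminal domain. On the SPRY list 12 rose (57.1%) and 3 fell (14.3%), beside 33.2% and 32.8% of the genes tested. Its median log2 fold change was 0.50. Of the 12 that rose, 6 were interferon-inducible members described above, which left 6 higher and 3 lower among the other 14. Of the 4 kept members without a RING domain, Trim14 rose, Trim16 fell and the other two did not pass. Levels of different genes were not set against each other, since the counts were not scaled by transcript length.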

How the data were processed

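RNA-seq was performed on 6 libraries of NRCFs, 3 of the Vector group and 3 labelled FTO overexpression. The authors deposited raw counts per gene symbol, 1 file per library. Per the submitters' processing notes the build was rn6 and reads were trimmed with Trimmomatic. The aligner, counting program, annotation and use of strand are not given in the sources used here, so overlapping, antisense and near-identical genes are uncertain. The genotype label set each group, and the title its replicate number.

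Genes were kept with filterByExpr (minimum count 10), which left 12941. Libraries were scaled by TMM and compared with the two-sided quasi-likelihood test of edgeR 4.0.16 in R 4.3.3, without covariates. Benjamini-Hochberg adjustment ran over the whole table of genes. Each SE came from the F statistic and its fold change. CPM values are TMM-normalized. A floor of 3 counts was worth 0.167 to 0.226 CPM. Intervals cover counting error and the spread between libraries. No 2 replicates agreed within sampling noise (chi-square per degree of freedom 1.56 to 8.02). The procedure was tested on simulated data in which most genes were unchanged. In these libraries most genes were called, so that test cannot show how the scaling behaves here.

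The members and all lists were chosen with earlier results of these data known. The interferon-inducible list came from general knowledge. Named were the interferon-inducible members, up to 8 other members in each direction with the largest change (adjusted p-value under 0.05, no overlap, mean of at least 100 counts), the MuRF, TIF1, NHL and membrane subfamilies, and the members that did not pass. The remaining members, and genes of the other lists, were chosen once their values had been seen. The list of interferon receptors and signalling factors is not reported here as a whole. Promoter windows came from RefSeq (GRCr8). DESeq2 1.42.0, limma-voom (limma 3.58.1), other scalings and filters, a narrower list, a replicate block and leaving out each library were tried as alternatives.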

Additional observations from a re-analysis of the deposited data

How the results depend on the processing

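Members with few counts had wide intervals, and with 3 libraries a group, calls near the threshold often turned on 1 library. Under 13 alternatives the members that rose numbered 18 to 20 and those that fell 8 to 12, and 7 interferon-inducible members rose in each (5 of 5 on the narrower list). Of the 43 members, 28 kept their call and sign in every alternative. The median log2 fold change became 1.70 for the interferon-inducible members and 0.0879 for the others on the narrower list, and 0.0432 for the others with a mean of at least 10 counts as the filter, where 1 member had no value. When a single library was left out, these medians ran from 1.07 to 1.27 and from -0.0183 to 0.0477. The sign changed only in members that did not pass in the edgeR test. Without a single library the log2 fold change ran from -0.0486 to 0.0864 for Trim11, from -0.0248 to 0.0477 for Trim23, from -0.0373 to 0.0268 for Trim41, from -0.278 to 0.00073 for Trim44, from -0.225 to 0.740 for Trim45, from -0.0287 to 0.495 for Trim6 and from -0.256 to 0.0194 for Trim62. Trim41 was at 0.00067 with limma-voom and at 0.00675 with library size alone. With DESeq2 the calls of Trim13, Trim24 (0.0925) and Trim68 (0.0852) were lost at those adjusted p-values, and Trim35 (0.0445) and Trim66 (0.0432) passed with limma-voom. Trim35 also passed without a filter (0.0427). With the replicate number as a block, 20 members rose and 9 fell, and Trim68 was lost (adjusted p-value 0.0543). Same-numbered libraries correlated at 0.00352, -0.0789 and 0.0346 in their deviations from the group means, so the numbers were not taken to pair them. The causes of these changes were not tested.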
